A study of Pinus armandii with 6 samples.

Results

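The 6 unigenes described here carry annotations of genes that set embryo and organ identity in other plants. They are VP1 (Unigene0069436), WOX8 (Unigene0072719), PLT4 (Unigene0009669), ANT (Unigene0001561), AGL15 (Unigene0044992) and SOC1 (Unigene0073207), out of 65117 unigenes in all, a unigene being 1 assembled transcript sequence. They were taken by identifier, and the set was chosen by their measured levels in September and August together with their annotation. Their differences between the months are therefore given as descriptions with no test, and tests are given only for other unigenes. The RNA came from seed kernels of the pine Pinus armandii, 3 biological replicate libraries harvested in September and 3 harvested in August. No treatment, genotype or tree is named for any library. The labels do not separate the embryo of a kernel from the haploid storage tissue around it, the megagametophyte.

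VP1, known as ABI3 in Arabidopsis, is a B3-domain transcription factor that carries the abscisic acid signal into seed maturation and dormancy. WOX8 is a homeodomain protein of the WUSCHEL-related family, which in Arabidopsis marks the basal cell lineage of the early embryo. AINTEGUMENTA (ANT) and the PLETHORA proteins are AP2-domain factors of organ growth and stem cell maintenance. AGL15 and SOC1 are MADS-box factors, known in Arabidopsis for promoting somatic embryogenesis and for promoting flowering.

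The annotations hold for some of the 6 and not for others. The VP1 unigene has a viviparous 1 protein of Picea abies as its best database match, is placed in the B3 family and carries gene ontology terms for embryo development and for response to abscisic acid. The WOX8 unigene best matches a WUSCHEL homeobox protein of Pinus pinaster. The PLT4 unigene goes against its place among embryo regulators. Its ontology terms are those of a sugar and ion transporter of the plasma membrane, and Unigene0074655, which has the same Symbol, best matches a probable polyol transporter, so its annotation is that of a transporter and not of a PLETHORA protein. The member's own best match is an unnamed Picea sitchensis protein, and no sequence was examined. The ANT unigene is placed in the ERF family and not in AP2, a separate family of the same annotation. It has a transcription factor term together with terms for chromosome segregation, chromosome condensation and ATP binding, and its best match is an unnamed Taxus protein. AGL15 and SOC1 are both placed in the M-type MADS family and not in MIKC, a separate MADS family of the same annotation. AGL15 carries a term for flower development, whereas SOC1 carries terms for DNA repair and recombination beside its DNA-binding terms, and neither has a named protein as its best match. The annotated functions of the 6 thus overlap only in part. The term for DNA-binding transcription factor activity is held by 4 (VP1, ANT, AGL15 and SOC1). VP1, WOX8 and AGL15 have the term for multicellular organism development, and VP1 alone has the term for embryo development.

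The libraries held 14845783, 17379628 and 12849649 counts in September and 16131203, 13610427 and 15734657 counts in August. Between the months, the quasi-likelihood test of edgeR, adjusted by Benjamini-Hochberg over all tested unigenes, called 67.8% of the 23216 unigenes tested, 35.4% higher and 32.5% lower in September. For 72.9% of the tested unigenes the libraries of the 2 months did not overlap in CPM, the count scaled to a fixed library size. At such a background, a difference between the months, or separate ranges, does not single out any unigene. The second August library stood apart in 341 unigenes with at least 50 counts there and 0 in every other library, against 0 to 4 such unigenes in each of the others. All 6 members were among the unigenes tested, AGL15 through its September counts alone. In these whole-kernel libraries, more cells of a type and more RNA per cell cannot be told apart.

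Of the 6 members, 5 stood higher in every September library than in any August library and 1, SOC1, stood lower, beside the 72.9% of tested unigenes whose libraries were likewise separate. Nothing is read from that count, since the same contrast chose the members. VP1, the maturation factor, was the most abundant of the 6 in September. It stood at 260.2, 267 and 241 CPM in the September libraries and at 137, 135 and 141 CPM in the August libraries. Every September library was above every August library. The mean level was 256 ± 13.1 CPM in September and 138 ± 2.87 CPM in August (SD, n = 3 each), which is 1.86-fold higher in September. Per length of transcript, the mean was 59.0 ± 3.31 FPKM in September and 31.8 ± 0.822 FPKM in August. FPKM divides the count by transcript length as well as by library size, and is the scale on which levels of different unigenes can be set side by side. No other unigene carries the Symbol VP1, and none shares its best match. A separate unigene carries the synonym ABI3 and is described with the B3 list.

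The WOX8 unigene was among the less abundant of the 6. It had 7.63, 7.03 and 7.41 CPM in the September libraries, against 3.31, 3.78 and 2.86 CPM in the August libraries. The 2 ranges did not overlap, and the spread within each month was small beside the gap. Mean levels were 7.36 ± 0.302 CPM in September and 3.32 ± 0.461 CPM in August (SD, n = 3 each), 2.22-fold higher in September. Per length of transcript that was 3.09 ± 0.111 FPKM in September and 1.40 ± 0.188 FPKM in August.

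ANT had the smallest difference of the 6. Its levels were 12.7, 16.9 and 14.8 CPM in September and 8.67, 8.38 and 10.4 CPM in August. The lowest September library was above the highest August library by a small margin. Mean levels were 14.8 ± 2.14 CPM in September and 9.13 ± 1.07 CPM in August (SD, n = 3 each), a ratio of 1.62. The log2 fold change of ANT, 0.70, was larger in size than that of 50.2% of all tested unigenes, close to the middle of the ranking by size. For VP1, at 0.90, the share was 58.7%, and for WOX8, at 1.15, it was 66.7%.

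AGL15, whose product in Arabidopsis supports embryo identity in culture, was close to the detection limit. The September libraries held 17, 19 and 10 counts, and the August libraries held 1, 0 and 0. All September libraries were above all August libraries, on counts too few to give a level for August. Summed over each month, 46 counts in September against 1 count in August gave a depth-adjusted ratio of 46.6 with a 95% exact interval of 7.95 to 1878. The interval covers counting error only. The September mean was 1.01 ± 0.198 CPM, and the August mean was 0.0208 ± 0.0360 CPM (SD, n = 3 each). MADS31 (Unigene0047922), the other unigene with the same best match, had 0.339 CPM in September and 0.220 CPM in August, with overlapping ranges, and was too low to be tested.

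SOC1, a MADS-box factor of the flowering pathway in Arabidopsis, was the 1 member lower in September. It had 12.9, 10.1 and 8.59 CPM in September, against 73.0, 74.5 and 64.8 CPM in August. The months were far apart, with the highest September library well under the lowest August library. Mean levels were 10.5 ± 2.17 CPM in September and 70.8 ± 5.19 CPM in August (SD, n = 3 each), which makes August 6.72-fold higher. The only other unigene with the Symbol SOC1, Unigene0018339, had 0 counts in September and 3 in August, so SOC1 counts came almost entirely from the member, at 100% in September and 99.9% in August.

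PLT4, a transporter by annotation, had the largest ratio of the members with counts in every library. It stood at 28.9, 42.2 and 27.4 CPM in September and at 1.56, 2.22 and 0.953 CPM in August. The September libraries were all above the August libraries, with the second of each month the highest. Mean levels were 32.9 ± 8.15 CPM in September and 1.58 ± 0.636 CPM in August (SD, n = 3 each), 20.8-fold higher in September. Within a month it was also the most uneven member among those with counts in every library, with a coefficient of variation of 24.8% in September and 40.3% in August. On the log2 scale its fold change of 4.40 was larger in size than that of 95.1% of the tested unigenes.

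**Figure D1:**
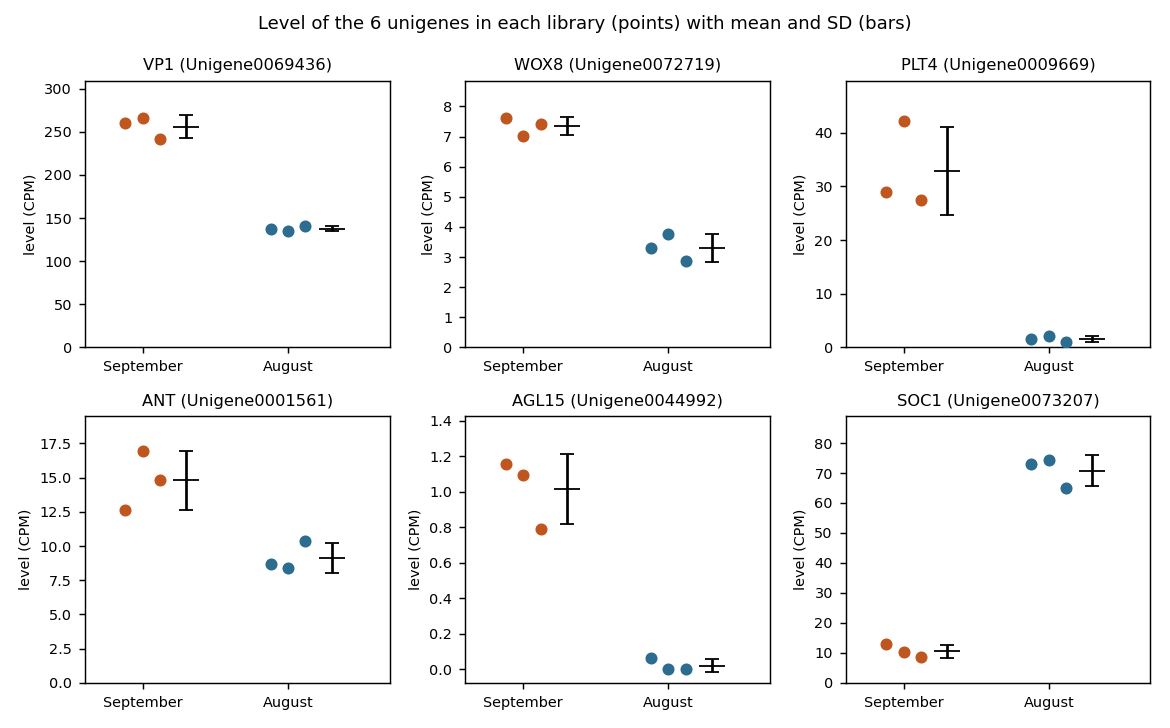
Level of the 6 unigenes in CPM (vertical axis, linear) in the 3 September and 3 August libraries (points), with the mean and SD of each month (bars). VP1, WOX8, PLT4, ANT and AGL15 sit higher in September and SOC1 sits lower, at 10.5 ± 2.17 CPM in September and 70.8 ± 5.19 CPM in August.

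The order of the 6 by level changed between the months. By mean FPKM in September the order was VP1 (59.0), PLT4 (14.5), SOC1 (9.42), ANT (4.26), WOX8 (3.09) and AGL15 (1.62). In August SOC1 came first at 63.5 FPKM, ahead of VP1 at 31.8, ANT at 2.64, WOX8 at 1.40, PLT4 at 0.695 and AGL15 at 0.0333. No neighbours in either order overlapped in their library ranges. Among all unigenes by mean FPKM, VP1 ranked at the 97.9th percentile in September and the 94.7th in August, and SOC1 at the 87.3rd percentile in September and the 97.7th in August. PLT4 stood at the 90.5th percentile in September and the 67.0th in August, and AGL15 at the 72.9th in September and the 22.3rd in August. WOX8 stood at the 78.6th percentile in September and the 73.8th in August. These ranks are over all 65117 unigenes, and undetected unigenes lift every percentile. Between 38279 and 46495 unigenes had a count in a given library. SOC1 was the 1 member whose rank was lower in September.

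**Figure D2:**
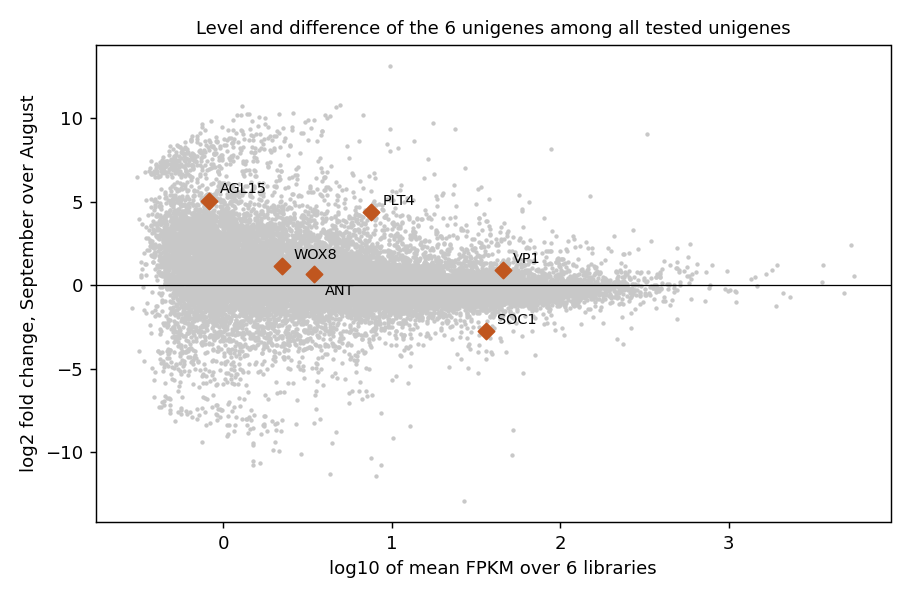
Mean FPKM over the 6 libraries (log10, horizontal axis) against the log2 fold change, September over August (vertical axis), for all 23216 tested unigenes (grey) and the 6 members (diamonds). VP1, WOX8 and ANT lie inside the cloud at log2 fold changes of 0.90, 1.15 and 0.70. PLT4 at 4.40, AGL15 at a fitted 5.08 that is no bound, and SOC1 at -2.74 lie further out. In size, these are larger than those of 95.1%, 96.4% and 87.1% of the tested unigenes.

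Reads of 1 gene can be divided over several unigenes, so the members were set beside the 10 other unigenes that share their Symbol or best match. Of these, 6 were tested, and 0 were higher, 3 were lower and 3 did not pass in the same edgeR fit, against 35.4% higher and 32.5% lower among all tested unigenes. Without the second September library, 1 was higher (WOX8 Unigene0034682, log2 fold change 1.01, adjusted p = 0.013981). All 3 that were lower carry the Symbol WOX8.

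The most abundant WOX8 unigene moved in the direction opposite to the member. Unigene0047983, whose best match is another WUSCHEL homeobox protein of Pinus pinaster, had 47.0, 47.5 and 50.5 CPM in September, against 102, 105 and 105 CPM in August. It averaged 48.3 ± 1.84 CPM in September and 104 ± 1.59 CPM in August (SD, n = 3 each), a log2 fold change of -1.11 ± 0.0619 (SE; edgeR adjusted p = 3.309e-07). The ranges did not overlap. Unigene0030088, which best matches a WOXG protein, fell to 4.83 ± 0.719 CPM in September, against 9.76 ± 0.512 CPM in August (log2 fold change -1.01, edgeR adjusted p = 0.0004231). Unigene0056074, named as a WOX8/9 protein of Picea abies, fell to 0.839 CPM in September, against 2.75 CPM in August (log2 fold change -1.73, edgeR adjusted p = 0.005114). Unigene0024792, at 0.927 CPM in September and 1.41 CPM in August, and Unigene0034682, at 3.71 ± 1.50 CPM in September and 2.20 ± 0.183 CPM in August, did not pass.

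Summed over the 6 unigenes with the Symbol WOX8, the level was 66.0 ± 3.29 CPM in September and 123 ± 2.51 CPM in August (SD, n = 3 each), a log2 ratio of -0.90. The sum therefore ran opposite to the member. The member held 11.2 ± 0.452% of all WOX8 counts in September and 2.68 ± 0.332% in August, while Unigene0047983 held 73.3 ± 2.17% in September and 84.3 ± 1.03% in August. Whether these unigenes are separate genes, alleles or fragments of 1 gene is not given in the sources used here.

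For PLT4 the sum kept the member's direction at a smaller size. Unigene0074658, the main PLT4 sequence of August, had 17.6, 16.8 and 14.7 CPM in September and 16.5, 17.4 and 15.4 CPM in August. These libraries overlapped, and the unigene did not pass (log2 fold change -0.01, edgeR adjusted p = 0.9628). The sum over 4 unigenes was 49.9 ± 8.74 CPM in September and 18.1 ± 1.57 CPM in August (SD, n = 3 each), 2.75-fold higher in September. The member made up 65.4 ± 4.94% of PLT4 counts in September and 8.54 ± 2.78% in August. The remaining pair were too low to be tested, with 26 and 5 counts in September and 4 and 2 counts in August.

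The families of the members were then described from lists built on Symbols and database matches, with the members left out. Each count of calls below comes from that edgeR fit, adjusted by Benjamini-Hochberg over all tested unigenes, whose median log2 fold change was 0.03. Of the B3 and LEC1 maturation regulators, the partners of VP1, 6 were tested, with 3 higher, 0 lower and 3 that did not pass, at a median log2 fold change of 0.47. Of these 6, 3 are not B3 or LEC1 proteins but proteins whose names refer to ABI3. Without them and a glutathione S-transferase match 3 were tested, 2 of them higher. The other higher call, at a fitted log2 fold change of 7.53, was among those left out. It had no counts in August, so that value is no bound. NFYB6, a LEC1-like subunit of the NF-Y complex, was higher in both of its tested unigenes: Unigene0024626 reached 6.97 ± 0.356 CPM in September, against 2.29 ± 0.178 CPM in August (log2 fold change 1.60, adjusted p = 6.189e-05). Unigene0072012 reached 14.6 ± 1.10 CPM in September, against 7.77 ± 2.46 CPM in August (0.91, adjusted p = 0.00308). ABI3 (Unigene0018349), named outside the rule as the closest relative of VP1 by Symbol, had 2.55 ± 0.202 CPM in September and 3.54 ± 0.917 CPM in August and did not pass (-0.46, adjusted p = 0.1531), but was lower with August library 1 left out (-0.68, adjusted p = 0.04523). The ABI3-interacting protein 3 (Unigene0004792) at 301 CPM in September and 294 CPM in August and SUA (Unigene0043164), a splicing suppressor of abi3 in Arabidopsis, at 184 CPM in September and 197 CPM in August did not pass.

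The WUSCHEL-related list held, besides the 5 tested WOX8 unigenes above, no other tested unigene: 0 higher, 3 lower and 2 that did not pass, at a median log2 fold change of -1.01. With August library 1 left out, WOX1 (Unigene0061460) entered the test and was higher (log2 fold change 2.43, adjusted p = 0.0219). Fits without September library 1, August library 2 or August library 3 also tested 6 unigenes of the list, and 0 were higher in each.

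Among the AP2-domain relatives of ANT, 11 were tested, with 6 higher, 2 lower and 3 that did not pass, at a median log2 fold change of 0.41. With 1 library left out, 4 to 5 of the 11 were higher, and 5 were higher by DESeq2. Leaving out unigenes whose annotation names another protein, 8 remained, with 6 higher and 1 lower in the fit to all libraries. The most abundant was PLT1 (Unigene0011851), which best matches a baby boom 2 factor of larch and belongs to the family that keeps stem cells and embryos going in Arabidopsis. It reached 156 ± 9.12 CPM in September, against 100 ± 17.0 CPM in August (log2 fold change 0.64, adjusted p = 0.0004184). AIL5 (Unigene0021601), a PLETHORA-type factor by its Symbol alone, had 2.45 ± 1.38 CPM in September and 0.0914 CPM in August (4.65, adjusted p = 0.0002584). Its libraries held 49, 15 and 40 counts in September and 1, 2 and 1 in August, too few to give a level for August. AP2 (Unigene0074427) was at 9.14 ± 1.74 CPM in September and 4.27 ± 1.32 CPM in August (1.08, adjusted p = 0.003294), and AP2 (Unigene0025042) at 2.48 ± 0.321 CPM in September and 1.01 ± 0.553 CPM in August (1.30, adjusted p = 0.02002). Unigene0025042 did not pass when September library 2 (adjusted p = 0.05335) or September library 3 (adjusted p = 0.05768) was left out. AIL1 (Unigene0023976), named for an AINTEGUMENTA-like protein of Pinus thunbergii, averaged 89.3 ± 5.99 CPM in September and 103 ± 10.1 CPM in August, lower at the edge of the threshold (-0.21, adjusted p = 0.04955), and did not pass with any 1 September library or the third August library left out (adjusted p = 0.05647 to 0.17731). It also missed the threshold by DESeq2 (adjusted p = 0.0595), with DESeq2's size factors (0.0542) and by limma on FPKM (0.0723). ANT1 (Unigene0006110), lower at a log2 fold change of -0.86 (adjusted p = 5.749e-06), carries ontology terms of amino acid transport and is not a relative of ANT.

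In the MADS-box list, the family of AGL15 and SOC1, more unigenes were lower than higher. Of 13 tested, 3 were higher, 8 lower and 2 did not pass, at a median log2 fold change of -0.83. When September library 2, August library 2 or August library 3 was dropped, AGL30 Unigene0061218 alone of the 3 higher calls still passed. Dropping September library 2 also brought AGL14 (Unigene0043250), named outside the rule, into the test, where it was higher (log2 fold change 1.64, adjusted p = 0.01975). AGL19 (Unigene0027592), from the same subfamily as SOC1 in Arabidopsis, fell furthest of those named, to 0.937 ± 0.281 CPM in September, against 7.76 ± 0.960 CPM in August (-3.04, adjusted p = 6.789e-06). GGM13 (Unigene0020232), a B-sister factor first described in Gnetum, fell to 11.0 ± 0.992 CPM in September, against 29.7 ± 3.09 CPM in August (-1.44, adjusted p = 4.705e-06). A second GGM13 unigene, Unigene0073494, named outside the rule, was called higher, at 1.04 ± 0.326 CPM in September and 0.363 ± 0.241 CPM in August (1.47, adjusted p = 0.02793), but did not pass with September library 1, September library 2, August library 2 or August library 3 left out (adjusted p = 0.06824 to 0.1094). AGL66 (Unigene0003465) and AGL65 (Unigene0072140), pollen factors in Arabidopsis, were lower too, at 41.9 ± 1.83 CPM in September and 67.0 ± 3.17 CPM in August for AGL66 (-0.68, adjusted p = 2.114e-05) and 17.0 ± 1.27 CPM in September and 33.7 ± 3.99 CPM in August for AGL65 (-0.99, adjusted p = 3.706e-05). AGL30 (Unigene0047823), at 0.604 ± 0.250 CPM in September and 1.63 ± 0.524 CPM in August, was lower (-1.40, adjusted p = 0.01503) but not without the third library of either month (adjusted p = 0.05962 without that of September and 0.06295 without that of August). Another AGL30 unigene, Unigene0061218, also named outside the rule, was higher, at 5.01 ± 0.302 CPM in September and 2.81 ± 0.533 CPM in August (0.83, adjusted p = 0.008494).

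**Figure D3:**
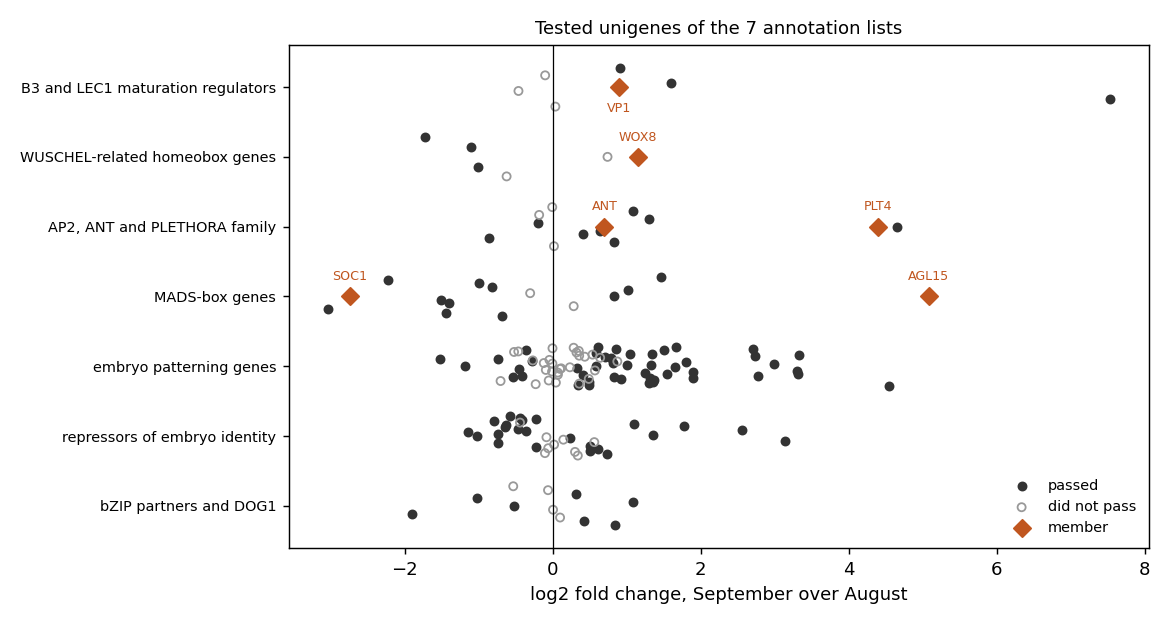
Log2 fold change, September over August (horizontal axis), of each tested unigene of the 7 lists (one line of points per list), filled where the edgeR call passed and open where it did not, with the members as diamonds, PLT4 being placed by its Symbol. The WOX8 diamond at 1.15 lies opposite to the 3 filled WUSCHEL-related points, which lie between -1.01 and -1.73, and the point furthest to the right of the first line has 0 counts in August, so its fitted value is no bound.

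Embryo patterning genes, which place axes, layers and meristems, were called 38 higher and 8 lower of 75 tested, with 29 that did not pass and a median log2 fold change of 0.49. PDF2 (Unigene0002531), an epidermal homeodomain factor in Arabidopsis, rose to 321 ± 16.1 CPM in September, against 180 ± 8.84 CPM in August (0.83, adjusted p = 1.954e-06). SCR (Unigene0040068), the SCARECROW factor of the root ground tissue, rose to 2.35 ± 0.541 CPM in September, against 0.287 ± 0.0922 CPM in August (2.99, adjusted p = 0.0001122). The TOPLESS-related corepressors did not move together. TPR1 (Unigene0065100) and TPR2 (Unigene0017330) were higher at log2 fold changes of 3.32 (adjusted p = 1.58e-05) and 3.30 (adjusted p = 2.16e-05). Both were short and low in CPM: TPR1, of about 520 bases, had 4.08 CPM in September and 0.403 CPM in August. TPR2, of about 619 bases, had 3.57 CPM in September and 0.351 CPM in August. The more abundant TPR3 (Unigene0045276), of about 5127 bases, was lower (-0.27, adjusted p = 0.006099). It had 248 ± 15.9 CPM in September and 301 ± 21.9 CPM in August. Per length of transcript, TPR3 had 48.1 FPKM in September and 58.3 FPKM in August. TPR1 had 7.78 FPKM in September and 0.771 FPKM in August, and TPR2 5.72 FPKM in September and 0.564 FPKM in August.

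Chromatin repressors that silence embryo genes in Arabidopsis seedlings gave 10 higher and 14 lower of 33 tested, with 9 that did not pass and a median log2 fold change of -0.09. With other proteins left out, chiefly receptor kinases under the Symbol HSL1, they gave 7 higher and 11 lower of 23. The 2 named HSL1 unigenes, Unigene0044543 at a log2 fold change of 2.55 and Unigene0049051 at 1.78, are receptors of this kind. The 2 named MSI1 unigenes, a histone-binding subunit of Polycomb complexes, went opposite ways. Unigene0031553 rose to 28.9 ± 2.54 CPM in September, against 3.29 ± 0.424 CPM in August (3.13, adjusted p = 1.138e-07). Unigene0038403 fell to 103 ± 5.62 CPM in September, against 173 ± 4.68 CPM in August (-0.74, adjusted p = 3.719e-06). FIE2 (Unigene0052312), another Polycomb subunit, fell to 46.1 ± 5.54 CPM in September, against 71.2 ± 3.25 CPM in August (-0.63, adjusted p = 0.000174). LHP1 (Unigene0000963), a reader of the Polycomb mark, had 110 CPM in September and 118 CPM in August and did not pass.

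Among the bZIP and AP2-type partners of VP1 in abscisic acid signalling and DOG1-like dormancy genes, 4 of 11 tested were higher, 3 lower and 4 did not pass, at a median log2 fold change of 0.00. DPBF3 (Unigene0036330), a bZIP factor that binds abscisic acid response elements, fell to 202 ± 5.38 CPM in September, against 291 ± 12.4 CPM in August (-0.53, adjusted p = 2.037e-05). HY5 (Unigene0009692), the bZIP factor of light responses, was lower at -1.90 (adjusted p = 0.0001984). The 2 named ABF1 unigenes differed in direction, Unigene0057404 being higher at 68.7 CPM in September and 55.1 CPM in August (0.32, adjusted p = 0.008498) and Unigene0046514 lower (-1.02, adjusted p = 0.004058). With the first August library left out, Unigene0057404 did not pass (adjusted p = 0.05122). ABI4 was higher in Unigene0042707 (1.09, adjusted p = 0.009671) and did not pass in Unigene0008396 (adjusted p = 0.4521).

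The unigenes whose profile over the 6 libraries was most like that of a member were found by the root mean square difference of log2(CPM + 0.5), each profile centred on its own mean. Those nearest to VP1 were SEC15B (0.0261 log2 units) and At5g14430 (0.0355), and those nearest to WOX8 were OsI_04558 (0.0430) and ISPF (0.0448). ANT was nearest to PME51 (0.0527) and EB1C (0.0583), and AGL15 to MED16 (0.0465) and IAA16 (0.0801), AGL15 being flattened by the added 0.5 at its low level. PLT4 was nearest to HSP17.4A (0.121) and KIC (0.153), and SOC1 to MLO2 (0.0739) and Os01g0939600 (0.118). The added 0.5 also flattened HSP17.4A, at 0.236 CPM in August, and MLO2, at 1.08 CPM in September. In a comparison of 2 months, such likeness rests largely on the size of 1 difference.

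Markers of the kernel and of other tissues were measured beside these results. Seed kernel markers (storage proteins and oleosins) summed to between 5014 and 5269 CPM in the September libraries and between 6732 and 7316 CPM in the August libraries, with 14 higher and 6 lower of 23 tested. Of the 37 kernel unigenes, 4 were at 0 in all September libraries and 3 in all August libraries. Green tissue markers (photosystem and Rubisco proteins) summed to between 423 and 504 CPM in September and between 295 and 348 CPM in August, with 9 higher and 2 lower of 11 tested. Of these 20 unigenes, 3 were at 0 throughout September and 2 throughout August. Wood markers summed to between 1741 and 2032 CPM in September and between 1701 and 1789 CPM in August, with 2 higher and 2 lower of 5 tested, and most of that sum came from 1 unigene with the Symbol CESA7, a secondary wall cellulose synthase. The pollen list, with 2 higher and 1 lower of 5 tested, summed to between 95.4 and 104 CPM in September and between 44.7 and 60.6 CPM in August, but its Symbols MS1 and TDR belong here to a methionine synthase and to receptor kinases, so it does not mark pollen. The part of these shifts in the levels of the 6 members was not tested.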

How the data were processed

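Levels were taken from 1 deposited table of an assembled transcriptome, with 6 libraries of seed kernels and 65117 unigenes. The authors deposited counts and FPKM values for each unigene, per the file headers. The submitters' processing notes name fastp, a read trimmer, and RSEM, a transcript quantifier that gives estimated counts. The headers do not say whether the deposited counts are such estimates. Neither assembler, database versions nor strand setting is given in the sources used here, so reads of overlapping or near-identical sequences may be split between unigenes. All measurement columns were matched to libraries by name. Only 8 of the 390702 counts held decimals, and every count was rounded before testing.

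Unigenes were tested with edgeR 4.0.16 in R 4.3.3 (limma 3.58.1): TMM normalization (factors 0.993 to 1.005), a filter at 10 counts by month and 15 in all, a quasi-likelihood fit without covariates, and Benjamini-Hochberg adjustment over 23216 unigenes at 0.05. These hold 98.6% to 99.7% of each library's counts. The same fit was also run on counts simulated from the means and dispersions of these data. CPM is the rounded count divided by the TMM-scaled library size, times 1e6. The labels call the libraries biological replicates without naming trees, so p-values measure only the spread among them. Precision is limited by depth: AGL15 rests on single-digit to low 2-digit counts. Exact ratio intervals are conditional binomial, at 95%.

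The members and lists were chosen with earlier results of these data known. Every member was named, with each tested unigene of the same Symbol or best match. From each list the 3 tested unigenes highest in mean FPKM were named, and the 3 that passed with the largest absolute log2 fold change at a mean of 1 CPM or more. Likeness was searched among tested unigenes with a Symbol and a mean of 5 CPM or more. Exceptions are marked in the text. A unigene that the rule names is not reported here. Removing unigenes whose other annotation names a different protein was decided after seeing the data. Alternatives were DESeq2 1.42.0, its size factors in edgeR, limma on log2(FPKM + 0.1), no filter, summing unigenes by Symbol, the replicate number as a block, and leaving out each library. No sequences were used here.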

Additional observations from a re-analysis of the deposited data

How the results depend on the processing

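The direction of VP1, ANT, PLT4, AGL15 and SOC1 was the same under every alternative run. WOX8 reversed where unigenes of a Symbol were summed (-0.88), and PLT4 shrank to 1.49, since both then include other sequences. AGL15, with 1 August count, had a fitted log2 fold change of 5.42 by DESeq2, 3.75 by limma on log2(FPKM + 0.1), and 4.58 to 6.92 with 1 library left out. The summed PLT4 log2 ratio was 1.68 on FPKM. With 1 library left out, 7885 to 8493 unigenes were higher and 7199 to 7660 lower. Among unigenes sharing a Symbol or best match, 0 to 1 higher without 1 library and 1 without the filter. Without 1 library, B3 and LEC1 regulators had 0 to 1 lower and WUSCHEL-related genes 0 to 1 higher. AP2 relatives then had 4 to 5 higher and 1 to 2 lower, and MADS-box genes 1 to 3 higher. AP2 relatives had 1 lower by DESeq2, by its size factors, by limma, by Symbol sums and without other proteins, and MADS-box genes had 1 higher by DESeq2, without the filter and by Symbol sums. Symbol sums leave fewer features: 0 WUSCHEL-related genes lower (all merge with the member), 12 patterning genes higher and 5 lower, 4 repressors higher and 7 lower, and 2 bZIP partners higher and 1 lower. They give no value for unigenes sharing a Symbol. Without other proteins, MADS-box genes had 3 higher and 7 lower of 11, and patterning genes 38 higher and 6 lower of 73. The cause of the other moves was not tested. Without the filter the median over all unigenes was 0.33. With a replicate block, 8027 unigenes were higher and 7401 lower and none of the 39 named unigenes changed its call; same-numbered libraries correlated at 0.10, 0.03 and 0.05 in their deviations from the month means and not every library correlated best with its own number, so the numbers are not taken as pairs. Without the second August library, log2 fold changes were 0.86 for VP1, 1.23 for WOX8, 4.68 for PLT4, 0.62 for ANT, 4.68 for AGL15 and -2.73 for SOC1.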

Other observations

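The transcription factor families to which the members were assigned were also counted over the whole family column, members left out, in the same edgeR fit with Benjamini-Hochberg adjusted p-values. Of 16 tested B3 unigenes, 2 were higher and 7 lower, at a median log2 fold change of -0.47, so the family of VP1 had more unigenes lower than higher while VP1 itself averaged 1.86-fold higher in September. Of 7 AP2 unigenes, 5 were higher and 1 lower (median 0.64). Of 61 ERF unigenes, the family given for ANT, 18 were higher and 28 lower (median -0.04). Of 8 MADS unigenes of the M-type and MIKC families, 2 were higher and 4 lower (median -0.49). NF-YB subunits, the family of LEC1, had 13 higher and 11 lower of 29 (median 0.02).

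By ontology term, 288 unigenes for embryo development other than VP1 were tested, with 79 higher and 115 lower. Unigenes with the term for DNA-binding transcription factor activity numbered 433 without the members, with 137 higher and 182 lower. Those with the term for transporter activity numbered 475 without PLT4, with 143 higher and 171 lower. Over all tested unigenes without the members, 8204 were higher and 7540 lower of 23210.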
